A study of Mus musculus with 8 samples.

Results

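Mitochondrial import genes and mitochondrial carrier genes were read in RNA-seq libraries of mouse embryonic fibroblasts that all expressed adenoviral E1A and the activated Ras HRasV12, on the strain background named C57BL6/N in the labels. Of 8 libraries, 4 were labelled wild-type and 4 Neat1-/- (Neat1 null), which lack the long noncoding RNA that paraspeckles assemble on. The series asks which genes differ between the genotypes. Whether the 4 libraries of a genotype stem from different embryos or cultures is not in the labels. By Xist and Y-linked genes, Neat1 null library 3 was female and the other Neat1 null libraries were male. The Neat1 null libraries thus did not all stem from the same embryo. All wild-type libraries were female, which leaves their source unknown. The p-values rest on the library-to-library spread alone, which may be technical in part, and that part was not tested. Members were all gene symbols of the deposited count tables that begin with Timm or Tomm and a number (24 import genes) or that consist of Slc25a and a number (47 carrier genes), 71 of 23420 symbols in all. With low counts removed, 22 import genes and 41 carrier genes were tested among 13316 genes.

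Most mitochondrial proteins are made in the cytosol. They enter through the translocase of the outer membrane (TOM, encoded by Tomm genes) and are handed to the translocases of the inner membrane (TIM, encoded by Timm genes). The TIM23 complex takes proteins with a cleavable presequence, and the TIM22 complex, with small Tim chaperones of the intermembrane space, inserts membrane proteins. The carriers of the Slc25 family are clients of that second route, and once in the inner membrane they exchange nucleotides, phosphate, organic acids, amino acids and cofactors between matrix and cytosol.

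The libraries held 19651035 to 38950207 counts assigned to genes. Neat1 itself had 138, 588, 753 and 1320 CPM (counts per 1000000, with library sizes scaled by TMM factors) across wild-type libraries 1 to 4, against 6.92, 11.3, 7.90 and 6.12 CPM across Neat1 null libraries 1 to 4. The 9 fibroblast markers summed to 1828 to 3401 CPM for wild-type and 2591 to 4034 CPM for Neat1 null libraries, mostly Vim (1233 to 3263 CPM) and Fn1 (431 to 1389 CPM). The collagen gene Col1a1 was low (1.29 to 12.4 CPM). Pdgfra was lower in Neat1 null libraries without overlap (3.92 to 10.9 against 40.9 to 148 CPM) and S100a4 higher (2.72 to 29.0 against 2.07 to 2.53 CPM). The epithelial marker Epcam was also present (26.9 to 64.6 CPM). Of the other listed epithelial markers, Cdh1 had 1.35 to 16.5 CPM, Krt5 at most 0.0233 CPM and Krt14 0 CPM. The immune marker Ptprc was at 0 in all 8. The 3 immune markers summed to 8.88 to 102 CPM for wild-type against 3.68 to 18.3 CPM for Neat1 null libraries, nearly all of it Cd68. Neat1 null libraries 1 and 3 stood apart: ribosomal protein genes took 25.4% and 15.04% of their counts, against 9.21% and 8.42% in Neat1 null libraries 2 and 4 and 5.99% to 7.05% in wild-type. In library 1 the ribosomal RNA gene Rn45s also took 5.23% of counts (at most 0.939% elsewhere). By Xist and Y-linked genes, all wild-type libraries and Neat1 null library 3 were female and the other 3 male. The part of these differences in the results was not tested.

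The import genes as a group stood higher in Neat1 null libraries, and the carriers lay on both sides of 0. In the test of all genes (edgeR quasi-likelihood, Benjamini-Hochberg adjusted p below 0.05), 13 of 22 import genes rose and 0 fell, against 9.97% of all genes tested that rose and 7.72% that fell (17.7% either way). No import gene was lower at an unadjusted p under 0.05 either, and DESeq2 called 16 higher and 0 lower. Of 41 carriers 3 rose and 0 fell. At an unadjusted p under 0.05, edgeR gave 12 carriers higher and 6 lower, where 18.6% of all genes were higher and 17.3% lower. DESeq2 called 9 carriers higher and 4 lower, against 14.5% and 11% of all genes. The median log2 fold change (Neat1 null minus wild-type) was 1.32 over tested import genes, 0.29 over tested carriers and -0.06 over all genes tested. Among import genes 21 of 22 had a positive value, from -0.54 to 3.12, and among carriers 25 of 41, from -1.68 to 1.71, where 47.8% of all genes tested were positive. The 4 libraries of 1 genotype did not overlap the 4 of the other for 15 import genes, all higher, and for 11 carriers, 6 higher and 5 lower. Such genes made up 22.6% of all tested, 11.7% higher and 11% lower. Fewer cells with a transcript and less of it per cell cannot be told apart in these bulk libraries.

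**Figure D1:**
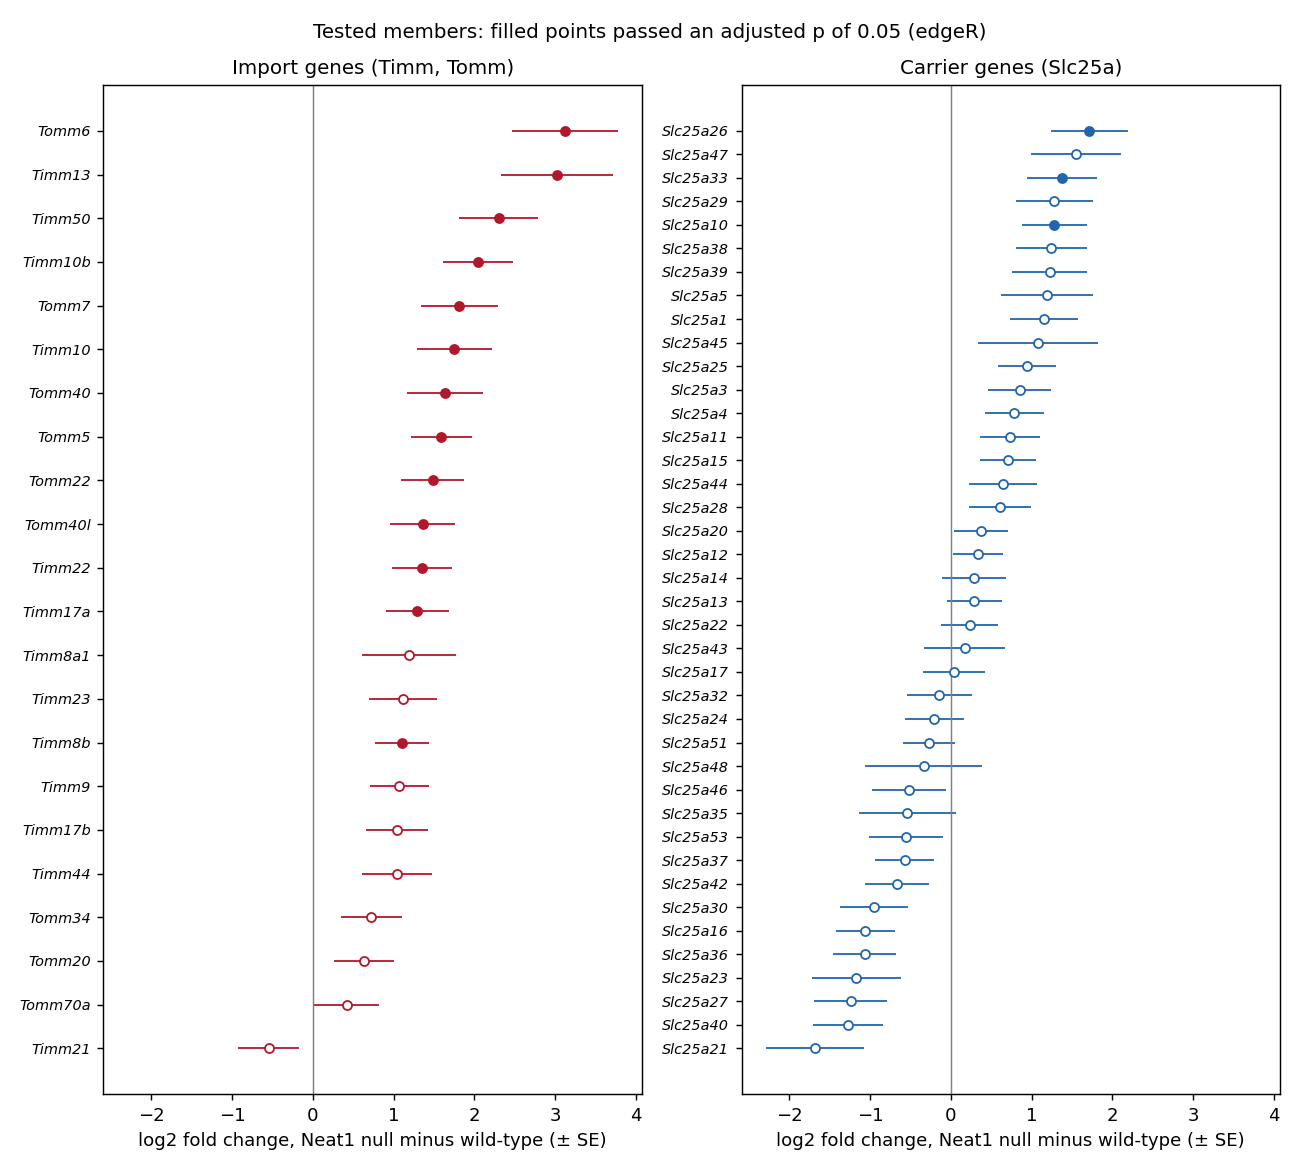
Log2 fold change (x axis, Neat1 null minus wild-type, bars ± SE) of each tested import gene (left) and of the tested carrier genes except 1 that is not reported here (right), sorted by value. Filled points passed an adjusted p of 0.05; 13 import genes and 3 carriers are filled, and all import genes except Timm21 lie right of 0.

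All calls depended on single libraries. With wild-type library 3, wild-type library 4 or else Neat1 null library 3 left out, 0 of the 16 called members passed (adjusted p = 0.0671 to 0.140, 0.0684 to 0.135 and 0.0646 to 0.0990), and over all genes only 0.135%, 0.082% and 0.095% passed there. At an unadjusted p under 0.05, 15, 15 and 17 import genes were still higher there, against 13.5%, 13.2% and 15.6% of all genes. The import median stayed between 1.18 and 1.48 and the carrier median between 0.20 and 0.41 with any 1 library left out, and 0 of the 16 called members changed sign. Without both Neat1 null libraries 1 and 3 no member passed (0.0497% of all genes did), the 13 called import genes had log2 fold changes of 0.58 to 1.46, the import median was 0.79, the carrier median 0.22, and 14 import genes were higher at an unadjusted p under 0.05, against 11% of all genes. With library sex as a covariate, the genotype value rested on Neat1 null library 3 alone. It is the only female Neat1 null library, and all wild-type libraries are female. That fit cannot tell a genotype difference from a trait of that library. Its log2 fold changes were 2.34 for Timm13, 1.81 for Tomm7, 1.67 for Slc25a26 and 1.22 for Slc25a33.

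Library by library, the import genes were shifted in all 4 Neat1 null libraries, by unequal amounts. Relative to each gene's wild-type mean on the log2(CPM + 0.5) scale, the import median was 1.83, 0.90, 1.85 and 0.83 in Neat1 null libraries 1 to 4 and 0.50, 0.27, -0.31 and -0.26 in wild-type libraries 1 to 4. The carrier median was 0.12, 0.31, 0.57 and 0.19 in the same Neat1 null libraries and 0.02, 0.17, -0.20 and -0.10 in wild-type. The import median lay above the carrier median in each Neat1 null library, most in library 1. In counts, import genes took 0.357%, 0.237%, 0.304% and 0.230% of the gene counts of Neat1 null libraries 1 to 4 and 0.185%, 0.164%, 0.131% and 0.133% in wild-type. The carriers took 0.223%, 0.366%, 0.428% and 0.399% in Neat1 null and 0.357%, 0.347%, 0.281% and 0.284% in wild-type libraries. Neat1 null library 1 held the largest import share and the smallest carrier share of raw counts. On the TMM scale the carrier order turns: carriers summed to 3943 CPM in that library and 3474 to 5878 CPM in the other Neat1 null libraries, against 2126 to 3317 CPM in wild-type. Among Neat1 null libraries, the highest value of an import gene was in library 1 for 11 genes and in library 3 for 10.

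**Figure D2:**
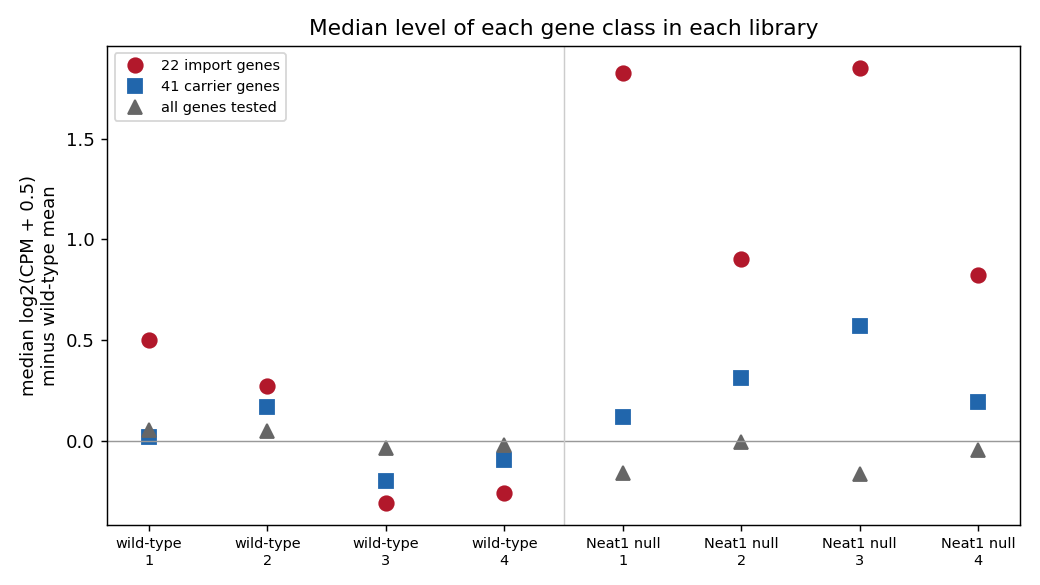
Median over the 22 tested import genes, the 41 tested carriers and all 13316 genes tested of log2(CPM + 0.5) minus the gene's wild-type mean (y axis), in each of the 8 libraries (x axis). Import genes reach 1.83 and 1.85 in Neat1 null libraries 1 and 3 and 0.90 and 0.83 in libraries 2 and 4, and carriers stay between 0.12 and 0.57.

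Of the 10 TOM-named genes 9 were tested, and 6 rose, against 9.97% of all genes tested (median log2 fold change 1.48). Tomm6, 1 of the small subunits that stabilise the TOM pore (chromosome 17, 47686646 to 47688386, minus strand, GRCm38), had 56.3, 55.3, 24.4 and 25.9 CPM across wild-type libraries 1 to 4, against 898, 88.8, 285 and 135 CPM across Neat1 null libraries 1 to 4. The groups did not overlap, and library 1 was highest by far. Its log2 fold change was 3.12 ± 0.66 (SE, with an adjusted p = 0.0180), and 2.06 without Neat1 null library 1 (adjusted p = 0.0352). Tomm6 shares 76.0% of its exon sequence with the overlapping gene model Gm21981 on the same strand, so its counts are uncertain. The other small subunits were higher as well. Tomm5 (chromosome 4, 45105208 to 45108114, minus strand) had 33.6, 27.9, 13.3 and 18.2 CPM across the wild-type libraries, against 90.5, 49.6, 82.7 and 57.2 CPM across the Neat1 null ones, with all Neat1 null values above all wild-type values. Its log2 fold change was 1.59 ± 0.38 (SE, with an adjusted p = 0.0190). Tomm7 (chromosome 5, 23838944 to 23844161, minus strand) had 64.1, 49.5, 57.2 and 55.6 CPM across the wild-type libraries, against 419, 88.6, 199 and 90.8 CPM across the Neat1 null ones. Its wild-type values were nearly level, and Neat1 null library 1 stood out. The log2 fold change was 1.82 ± 0.47 (SE, with an adjusted p = 0.0233), and 1.15 without Neat1 null library 1 (adjusted p = 0.0502).

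Tomm40, the channel of the complex (chromosome 7, 19701313 to 19715438, minus strand), had 159.8, 90.1, 40.3 and 46.3 CPM across the wild-type libraries, against 303, 165, 383 and 194 CPM across the Neat1 null ones. Wild-type library 1 nearly reached the lowest Neat1 null library. The log2 fold change was 1.64 ± 0.47 (SE, with an adjusted p = 0.0307), a call also lost without wild-type library 2 (adjusted p = 0.0542). Its less studied paralog Tomm40l had 32.8, 49.3, 32.3 and 29.4 CPM across the wild-type libraries, against 94.6, 57.1, 166 and 50.9 CPM across the Neat1 null ones, a log2 fold change of 1.36 ± 0.41 (SE, with an adjusted p = 0.0345). Neat1 null library 3 was highest, and library 4 barely passed wild-type library 2. Tomm40l shares 64.3% of its exon sequence with Nr1i3 on the other strand, and the strand setting of the counting is not given in the sources used here, so these reads cannot be told apart. Its call ended without wild-type library 1 or Neat1 null library 1 (adjusted p = 0.0544 and 0.0531) and with upper-quartile scaling (0.0516). Tomm22, the central receptor, rose by 1.48 (SE 0.39, adjusted p = 0.0233), with 116 ± 34.6 CPM for wild-type against 325 ± 115 CPM for Neat1 null (SD, n = 4).

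The 3 other tested TOM-named genes did not pass. The receptors Tomm20 and Tomm70a had log2 fold changes of 0.64 ± 0.37 (SE, with an adjusted p = 0.229) and 0.42 ± 0.40 (SE, with an adjusted p = 0.469). Tomm20 had 199, 153, 162 and 134 CPM across the wild-type libraries, against 123, 293, 328 and 263 CPM across the Neat1 null ones, so Neat1 null library 1 was the lowest of all 8 and the other 3 the highest. In Tomm70a, Neat1 null library 3 was the lowest of all 8 and library 1 the highest, at 127 and 376 CPM. Tomm34, a cytosolic cochaperone, had a log2 fold change of 0.73 ± 0.38 (SE, with an adjusted p = 0.181). Tomm20l, a Tomm20 relative, had 6 counts over all 8 libraries and was not tested.

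Among the 7 small Tim genes, whose products chaperone hydrophobic precursors between the membranes, 6 were tested. Of these 4 rose, against 9.97% of all genes tested (median 1.47). Timm13 (chromosome 10, 80899450 to 80900969, minus strand) had the highest CPM of all import genes when averaged over all 8 libraries, but not in wild-type alone, with 80.1 ± 26.2 CPM for wild-type against 650.2 ± 798 CPM for Neat1 null (SD, n = 4). Its values were 112, 90.2, 54.3 and 63.9 CPM across the wild-type libraries, against 1836, 160.0, 407 and 198 CPM across the Neat1 null ones. All Neat1 null libraries lay above wild-type, and library 1 was far above the other 3. The log2 fold change was 3.02 ± 0.69 (SE, with an adjusted p = 0.0186) and fell to 1.67 without Neat1 null library 1 (adjusted p = 0.0352). Timm10b (chromosome 7, 105640056 to 105643637, plus strand), a small Tim of the TIM22 complex, had 17.5, 21.3, 15.3 and 13.1 CPM across the wild-type libraries, against 99.5, 35.3, 109 and 33.8 CPM across the Neat1 null ones. Here libraries 1 and 3 were about equal, and the groups were well separated. It had the smallest p of all members, with a log2 fold change of 2.05 ± 0.43 (SE, with an adjusted p = 0.0180). Timm10b shares 10.5% of its exon length with the gene model Gm45799 on the same strand, so part of its counts is uncertain. Timm10, the partner of Timm9, had 11.6 ± 6.95 CPM for wild-type against 39.2 ± 18.1 CPM for Neat1 null (SD, n = 4), a log2 fold change of 1.75 ± 0.47 (SE, with an adjusted p = 0.0240).

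Timm9 itself, with 48.2 CPM in Neat1 null library 1 and 24.3 to 27.0 CPM in the others against 10.7 to 21.6 CPM in wild-type, did not pass at 1.07 ± 0.37 (SE, with an adjusted p = 0.0558). Timm8b, the partner of Timm13, had 53.6, 67.8, 40.1 and 46.6 CPM across the wild-type libraries, against 109, 95.2, 155 and 87.4 CPM across the Neat1 null ones. Its Neat1 null libraries were higher without overlap, and the log2 fold change was 1.10 ± 0.34 (SE, with an adjusted p = 0.0371). That call ended without wild-type library 1 (adjusted p = 0.0514) and with upper-quartile scaling (0.0562). The X-linked Timm8a1 had 13.0, 5.13, 4.10 and 3.82 CPM across the wild-type libraries, against 34.4, 11.4, 4.97 and 8.94 CPM across the Neat1 null ones. These values overlapped, with library 1 highest in each genotype, and the log2 fold change of 1.19 (SE 0.58) did not pass (adjusted p = 0.153). Timm8a1 was 1.78 without wild-type library 1 (adjusted p = 0.0457), 0.39 without Neat1 null library 1 and -0.39 with library sex as a covariate. Timm8a2 had 3 counts in all and was not tested.

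Of the 6 genes of the TIM23 presequence translocase and its motor, 2 rose, against 9.97% of all genes tested (median 1.08). Timm50, the receptor of that complex (chromosome 7, 28305516 to 28312072, minus strand), had 119, 86.1, 44.0 and 46.0 CPM across the wild-type libraries, against 517, 198, 549.7 and 187 CPM across the Neat1 null ones. Neat1 null libraries 1 and 3 were about equal and libraries 2 and 4 lower, all above wild-type. Its log2 fold change was 2.30 ± 0.49 (SE, with an adjusted p = 0.0180), and 1.39 without Neat1 null libraries 1 and 3. Timm17a, a core membrane subunit, had 118, 102, 61.9 and 67.6 CPM across the wild-type libraries, against 309, 137, 261 and 148 CPM across the Neat1 null ones. The groups did not overlap, and the log2 fold change was 1.29 ± 0.39 (SE, with an adjusted p = 0.0354), a call lost when either wild-type library 2 or Neat1 null library 1 was left out (adjusted p = 0.0585 and 0.0663). Its X-linked paralog Timm17b had 35.2, 53.4, 40.5 and 38.2 CPM across the wild-type libraries, against 64.0, 64.4, 158 and 58.7 CPM across the Neat1 null ones. Library 3, the female Neat1 null library, was far above the other 3, and the log2 fold change of 1.05 (SE 0.38) missed the threshold (adjusted p = 0.0678). Timm17b was 0.59 without that library. With library sex as a covariate, where the Neat1 null side is that library alone, Timm17b was 1.92.

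Timm23, the channel subunit, had a log2 fold change of 1.12 ± 0.43 (SE, with an adjusted p = 0.0767), with 16.7 CPM in Neat1 null library 1 and 43.2 to 58.5 CPM in the other 3, against 10.8 to 30.5 CPM in wild-type. Its longest transcript matches the gene model Gm10273 over 95.6% of its length at 99.9% identity, so its counts are uncertain. Timm44, which anchors the import motor, had 238 CPM in Neat1 null library 1 and 66.1 to 80.2 CPM in the others, against 44.6 to 77.3 CPM in wild-type, and did not pass (log2 fold change 1.04, adjusted p = 0.102). Timm21 was the only import gene with a negative value, -0.54 (SE 0.38, adjusted p = 0.312). Timm22, the pore of the carrier translocase, rose by 1.35 (SE 0.37, adjusted p = 0.0260), with 53.8 ± 16.1 CPM for wild-type against 137 ± 50.4 CPM for Neat1 null (SD, n = 4) and no overlap.

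**Figure D3:**
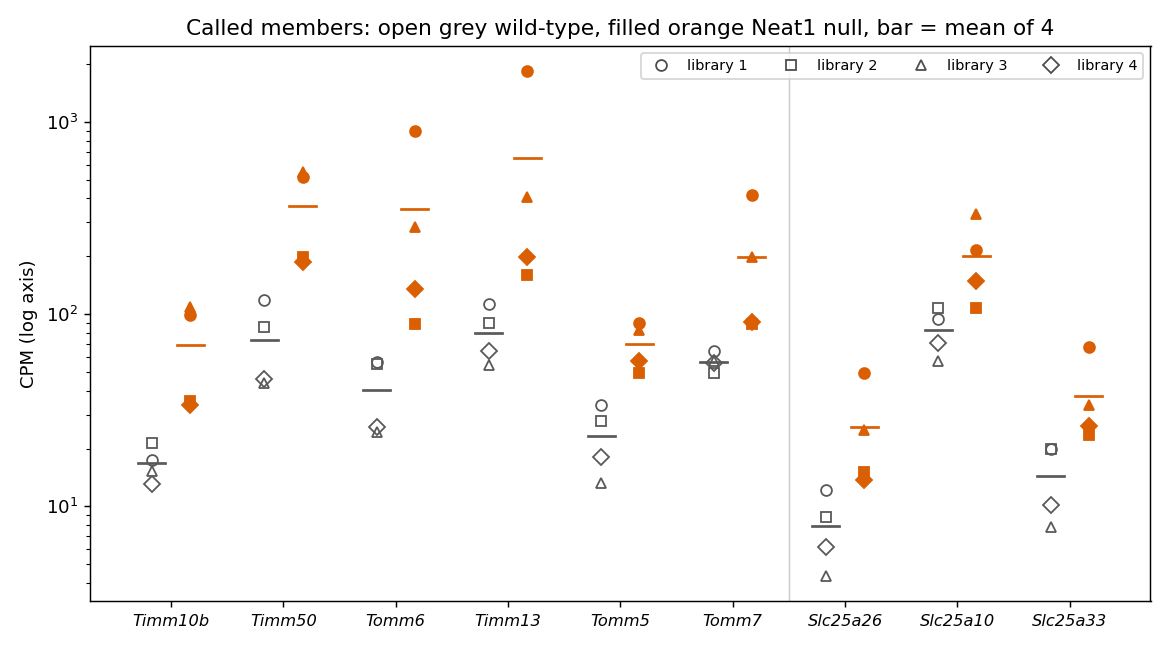
CPM (log axis) in each library of the 6 called import genes with the smallest p (left of the line) and the 3 called carriers (right). Grey open symbols are wild-type, orange filled symbols Neat1 null, symbol shape gives the library number and bars are means of 4; Neat1 null libraries 1 and 3 are the 2 highest for each gene, and only Slc25a10 overlaps between genotypes.

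Promoter windows were examined because the import genes rose together. RefSeq windows of GRCm38.p6, from 250 bases before to 50 after a start site, were found for 21 import genes and 36 carriers. The palindromic consensus motif of nuclear respiratory factor NRF1 was in 0 of them, and in 1.07% of 27025 genes with a window. The ETS motif, searched as CCGGAAG on both strands, was in 8 of 21 import genes (38.1%) and 7 of 36 carriers (19.4%), against 9.93% of all genes with a window and 19.6% of the 10623 tested ones. It was in 4 of 11 import genes that rose and in 3 of 8 that were tested and did not pass. Over all tested genes it was in 31.3% of 1114 that rose and 6.48% of 803 that fell. The stretches below show the match in the called genes Tomm22 and Timm8b and in Tomm70a, Slc25a3, Slc25a20 and Slc25a38, which did not pass; capitals mark the ETS motif, and in Tomm22 its 2 strands overlap.
Tomm22, chr15:79670806-79670842, plus strand: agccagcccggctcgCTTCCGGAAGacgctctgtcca
Timm8b, chr9:50603874-50603900, plus strand: aacctgaagcgtgaaCCGGAAGgcagg
Tomm70a, chr16:57121619-57121655, plus strand: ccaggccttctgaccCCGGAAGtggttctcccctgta
Slc25a3, chr10:91124121-91124157, minus strand: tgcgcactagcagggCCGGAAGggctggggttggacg
Slc25a20, chr9:108662042-108662078, plus strand: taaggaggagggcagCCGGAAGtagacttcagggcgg
Slc25a38, chr9:120110321-120110357, plus strand: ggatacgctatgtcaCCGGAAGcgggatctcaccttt
Counted from the start site, the matches begin at -47 and -44 in Tomm22, -12 in Timm8b, -80 in Tomm70a, -175 in Slc25a3, -79 in Slc25a20 and -46 in Slc25a38. A match is a description of the letters and not evidence of binding.

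Among the carriers, Slc25a26, which brings S-adenosylmethionine into mitochondria (chromosome 6, 94500331 to 94604672, plus strand), rose with the smallest p. It had 12.2, 8.77, 4.36 and 6.16 CPM across the wild-type libraries, against 49.7, 15.1, 25.01 and 13.7 CPM across the Neat1 null ones. All 4 Neat1 null libraries lay above wild-type, library 1 highest. The log2 fold change was 1.71 ± 0.47 (SE, with an adjusted p = 0.0269). Slc25a33, a pyrimidine nucleotide carrier (chromosome 4, 149744036 to 149774277, minus strand), had 19.9, 19.9, 7.83 and 10.2 CPM across the wild-type libraries, against 67.3, 23.4, 33.8 and 26.2 CPM across the Neat1 null ones. Library 1 again stood out, and the groups did not overlap. Its log2 fold change was 1.38 ± 0.43 (SE, with an adjusted p = 0.0411). Slc25a10, the dicarboxylate carrier (chromosome 11, 120491840 to 120499187, plus strand), had 94.6, 108, 56.8 and 70.8 CPM across the wild-type libraries, against 215, 107, 333 and 148 CPM across the Neat1 null ones. Neat1 null library 2 lay just below wild-type library 2, so the groups overlapped, and the log2 fold change was 1.28 ± 0.41 (SE, with an adjusted p = 0.0411). Leaving out Neat1 null library 1 ended all 3 calls, at adjusted p = 0.0597 to 0.109. That of Slc25a10 also ended without wild-type library 2 (0.0542), and those of Slc25a33 and Slc25a10 with upper-quartile scaling (0.0523 and 0.0536).

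The phosphate and ADP/ATP carriers, which supply ATP synthase and export its product, were among the 4 most abundant members per length. In wild-type libraries the phosphate carrier Slc25a3 had 287 ± 80.7 CPM per kilobase of mRNA, the ADP/ATP carriers Slc25a5 and Slc25a4 had 279 ± 267 and 142 ± 38.3, and the glutathione carrier Slc25a39 had 155 ± 51.7 (SD, n = 4). The highest import gene on that scale was Timm8b with 100.4 ± 22.9. Slc25a3 and Slc25a5 did not differ beyond their spread, nor did Slc25a39 and Slc25a4. Slc25a3 had 605, 539.7, 352 and 351 CPM across the wild-type libraries, against 746, 617, 1115 and 859 CPM across the Neat1 null ones, without overlap. Its log2 fold change of 0.85 (SE 0.39) did not pass (adjusted p = 0.133). Slc25a4 had 381, 231, 264 and 221 CPM across the wild-type libraries, against 602, 406, 476 and 405 CPM across the Neat1 null ones. Again the genotypes did not overlap, at a log2 fold change of 0.79 ± 0.36 (SE, with an adjusted p = 0.133). The X-linked Slc25a5 had 830.1, 286, 143 and 124 CPM across the wild-type libraries, against 446, 720.1, 1145 and 849 CPM across the Neat1 null ones. Wild-type library 1 reached the Neat1 null range, and the other wild-type libraries were well below it. The log2 fold change was 1.19 ± 0.57 (SE, with an adjusted p = 0.145), and 2.11 without wild-type library 1 (adjusted p = 0.0144). Processed pseudogenes match 71.5% to 72.3% of the Slc25a5 transcript, which makes part of its counts uncertain.

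No carrier fell by edgeR with TMM scaling, but 6 had log2 fold changes of -1 or less. With upper-quartile scaling, which moved the median of all genes from -0.06 to -0.24, 1 carrier was called higher (Slc25a26) and 5 lower (Slc25a16, Slc25a21, Slc25a27, Slc25a36 and Slc25a40), against 7.78% and 10.7% of all genes (18.5% either way), and import genes were called 11 higher and 0 lower. Relative to the median of all genes the import median was 1.38 with TMM and 1.37 with upper-quartile factors, and the carrier median 0.35 and 0.36. The glutathione carrier gene Slc25a40 had 13.9, 18.1, 20.7 and 19.3 CPM across the wild-type libraries, against 5.66, 10.7, 2.89 and 10.4 CPM across the Neat1 null ones. Every Neat1 null library was lower, library 3 most. The log2 fold change was -1.27 ± 0.43 (SE, with an adjusted p = 0.0532). Slc25a40 passed without wild-type library 1 or Neat1 null library 2 (adjusted p = 0.0479 and 0.0392). It also passed with DESeq2 (adjusted p = 0.0279) and in edgeR with a block for the replicate number (0.0357). It was -2.64 with library sex as a covariate, which sets Neat1 null library 3 alone against wild-type. Its paralog Slc25a39 pointed the other way, with 236, 388, 191 and 228 CPM across the wild-type libraries, against 685, 313, 1095 and 344 CPM across the Neat1 null ones. These values overlapped, with libraries 1 and 3 highest, and the log2 fold change was 1.22 ± 0.46 (SE, with an adjusted p = 0.0740). Slc25a39 passed without Neat1 null library 2 (adjusted p = 0.0418) and with DESeq2 (0.0291), and was 2.07 in the fit with the sex covariate. Slc25a21, the oxodicarboxylate carrier, had the most negative value, -1.68 ± 0.61 (SE, with an adjusted p = 0.0664), at 0.345 to 5.16 CPM. Slc25a27, an uncoupling protein relative, and Slc25a16 had log2 fold changes of -1.24 ± 0.45 (SE, with an adjusted p = 0.0659) and -1.06 ± 0.36 (SE, with an adjusted p = 0.0541). In both, and in Slc25a21 and Slc25a53, Neat1 null libraries lay below wild-type without overlap.

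The remaining carriers were spread around 0. All 7 tested amino acid carriers had positive values, from 0.23 to 1.28, and none passed. Among them Slc25a12 and Slc25a13, the aspartate-glutamate carriers, had 0.34 (SE 0.31) and 0.29 (SE 0.34). Slc25a12 had 85.6, 81.4, 63.7 and 64.5 CPM across the wild-type libraries, against 79.3, 90.9, 109 and 93.7 CPM across the Neat1 null ones, and Slc25a13 78.1, 92.2, 53.1 and 75.4 CPM across the wild-type libraries, against 65.1, 125, 74.1 and 100.3 CPM across the Neat1 null ones. Both overlapped between genotypes. The mitoferrin genes Slc25a37 and Slc25a28, for iron, had -0.57 (SE 0.36) and 0.61 (SE 0.39). Slc25a37 had 41.5, 56.8, 86.1 and 60.0 CPM across the wild-type libraries, against 38.5, 51.8, 22.6 and 51.5 CPM across the Neat1 null ones. Slc25a28 had 27.8, 42.2, 26.8 and 40.1 CPM across the wild-type libraries, against 68.4, 33.5, 79.1 and 27.6 CPM across the Neat1 null ones, with libraries 1 and 3 highest where Slc25a37 was lowest. Slc25a28 turned to -0.17 without those 2 libraries, and Slc25a13 to -0.01 with library sex as a covariate.

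Of the nucleotide carriers other than those of ADP/ATP, 1 of 6 tested rose, against 9.97% of all genes tested. This was Slc25a33. Its relative Slc25a36 had 42.7, 26.2, 58.0 and 68.8 CPM across the wild-type libraries, against 15.99, 36.1, 16.97 and 24.2 CPM across the Neat1 null ones, a log2 fold change of -1.07 ± 0.39 (SE, with an adjusted p = 0.0677). Wild-type library 2 lay within the Neat1 null range, and Slc25a36 passed without Neat1 null library 2 (adjusted p = 0.0324). The calcium-regulated ATP-magnesium carriers Slc25a23 and Slc25a24 had -1.17 (SE 0.55) and -0.20 (SE 0.36). Slc25a23 had 14.3, 53.5, 69.9 and 76.6 CPM across the wild-type libraries, against 13.4, 13.0, 54.1 and 14.5 CPM across the Neat1 null ones, so wild-type library 1 was as low as most Neat1 null libraries while Neat1 null library 3 was about as high as wild-type library 2. Slc25a24 had 108, 88.7, 72.9 and 103 CPM across the wild-type libraries, against 64.9, 114, 42.2 and 102 CPM across the Neat1 null ones, lowest in Neat1 null libraries 1 and 3. Slc25a23 was -1.96 without Neat1 null library 3, passed without wild-type library 1 (-1.47, adjusted p = 0.0494) and was 0.02 with library sex as a covariate. Slc25a24 turned to 0.02 without Neat1 null library 3 and to 0.21 without libraries 1 and 3. The citrate carrier Slc25a1 and the glycine carrier Slc25a38 had positive values that missed the threshold, 1.16 and 1.25 (adjusted p = 0.0679 and 0.0613). Slc25a38 was higher in Neat1 null libraries without overlap, but the groups almost touched. Neat1 null library 1 had 12.67 CPM and wild-type library 1 had 12.59 CPM. Among the other groups, the 8 cofactor and glutathione carriers had a median log2 fold change of -0.21 (1 rose), the 5 carriers of di- and tricarboxylates and acylcarnitine 0.73 (1 rose), the 3 uncoupling protein relatives -0.96 (0 rose) and 7 further carriers -0.33 (0 rose). The 6 untested carriers, Slc25a2, Slc25a18, Slc25a31, Slc25a34, Slc25a41 and Slc25a54, had 1 to 63 counts over all 8 libraries.

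Within pairs of close paralogs the ratio of 1 gene to the other does not depend on library scaling, but it is not corrected for gene length. Slc25a39 and Slc25a40 have 2756 and 8386 exon bases, and Slc25a33 and Slc25a36 have 1887 and 9594. With the length and GC correction described below, the log2 fold changes of these 4 genes were 0.60, -0.74, 0.70 and -0.32. Without it they were 1.22, -1.27, 1.38 and -1.07. The part of length in the ratios was not tested. For 9 pairs the log2 ratio of CPM + 0.5 was compared with an exact 2-sided permutation test over 70 assignments, which cannot give a p below 0.0286, and adjusted over the 9. No pair passed after adjustment. The log2 ratio of Slc25a39 to Slc25a40 was 3.78 ± 0.54 for wild-type against 6.23 ± 1.67 for Neat1 null (SD, n = 4), a difference of 2.45 (exact permutation p = 0.0286, adjusted p = 0.257). It was 4.04, 4.39, 3.17 and 3.52 across wild-type, against 6.80, 4.801, 8.34 and 4.98 across Neat1 null libraries, higher in each Neat1 null library than in any wild-type library. Without Neat1 null libraries 1 and 3 the difference was 1.11. That of Slc25a33 to Slc25a36 was -1.74 ± 1.20 for wild-type against 0.63 ± 1.14 for Neat1 null (SD, n = 4), a difference of 2.37 (exact permutation p = 0.0571, adjusted p = 0.257). Wild-type library 2 lay above Neat1 null library 2, and the other libraries were separated. The ratio of Slc25a4 to Slc25a5 was 0.07 ± 0.97 for wild-type against -0.68 ± 0.77 for Neat1 null (SD, n = 4), a difference of -0.75 (exact permutation p = 0.229, adjusted p = 0.514). For Slc25a37 to Slc25a28 it was 0.81 ± 0.58 for wild-type against -0.27 ± 1.26 for Neat1 null (SD, n = 4), a difference of -1.08 (exact permutation p = 0.286, adjusted p = 0.514), and -0.05 without Neat1 null libraries 1 and 3. Leaving out those libraries gave 1.49 for Slc25a33 to Slc25a36 and -1.91 for Slc25a23 to Slc25a24. The other 5 differences, for Timm17a to Timm17b, Timm8a1 to Timm8b, Tomm40 to Tomm40l, Slc25a12 to Slc25a13 and Slc25a23 to Slc25a24, ranged from -0.91 to 0.55 (exact permutation p = 0.286 to 0.971, adjusted p = 0.514 to 0.971).

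Import genes are shorter than carriers and than most genes, and fold changes in these libraries followed gene length. The median exon length was 2862 bases for tested import genes, 3935 for tested carriers and 4457 for 13212 tested genes with a length. Across genes, which are not independent replicates and share the 8 libraries, Spearman's rho of log2 fold change with exon length was -0.46 over import genes, -0.53 over carriers and -0.41 over all. The slope of a gene's log2 deviation from its mean over libraries on log2 exon length was 0.12 to 0.23 in wild-type and -0.29, 0.01, -0.45 and -0.05 in Neat1 null libraries 1 to 4, so libraries 1 and 3 again stood apart. With each library corrected for gene length and GC content, Spearman's rho with exon length was 0.28 over import genes and -0.16 over carriers. After the correction 8 of 22 import genes rose and 0 fell, against 5.3% and 5.66% of all genes, and 2 of 41 carriers rose. The import median was then 1.15, the carrier median 0.29 and that of all genes -0.01.

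The correction changed which members passed. Timm10b (2.08, adjusted p = 0.0378), Timm50 (1.69, 0.0396), Tomm6 (1.96, 0.0445), Timm17a (2.01, 0.0381), Timm22 (1.19, 0.0399) and Tomm40l (1.28, 0.0446) stayed called. Timm9 and Tomm70a, which had missed the threshold without it, passed with the correction (1.37 and 1.18, adjusted p = 0.0406 and 0.0475). Timm13, Tomm5, Tomm7, Tomm22, Tomm40, Timm10 and Timm8b did not pass any more (adjusted p = 0.0506 to 0.732). Timm13 was then 1.93, Tomm40 1.42, Tomm7 1.20, Tomm22 1.11 and Tomm5 0.89. The shortest member, Timm8b with 518 bases of exon, went from 1.10 to 0.15, and Timm10 from 1.75 to 0.68. The length used was that of all exons of a gene together. The median mRNA length was much shorter for Timm10b (694 against 3582 bases), Timm22 (746 against 3183) and Timm9 (794 against 4282). These lengths were closer for Timm8b (518 and 518), Timm10 (690 and 815) and Tomm5 (659 and 868). A correction by mRNA length was not tested. Among carriers Slc25a26 stayed called (1.76, adjusted p = 0.0441), Slc25a25, an ATP-magnesium carrier, was added (1.34, 0.0446), and Slc25a10 and Slc25a33 were lost (0.0804 and 0.210).

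**Figure D4:**
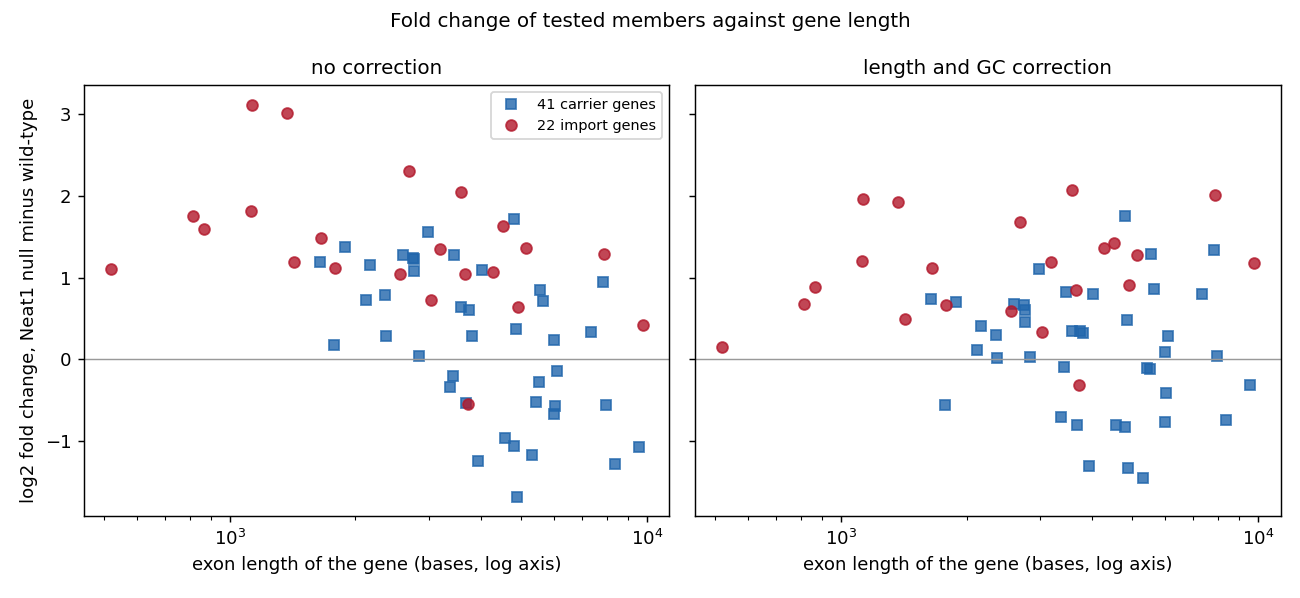
Log2 fold change (y axis, Neat1 null minus wild-type) against exon length in bases (x axis, log scale) of 22 import genes (red circles) and 41 carriers (blue squares), without (left) and with (right) the correction of each library for length and GC content. Values fall with length on the left, and the import genes stay mostly above 0 on the right, with a median of 1.15.

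Other genes of the import route, outside the naming rule, also rose in number. Of 26 genes for the motor, intermembrane space assembly, outer membrane insertion, presequence cleavage and folding, 13 rose and 0 fell, against 9.97% and 7.72% of all genes (0 lower at an unadjusted p under 0.05), with a median of 1.11. DESeq2 called 15 higher and 0 lower, against 14.5% and 11% of all genes. The length and GC correction left 8 higher and 0 lower, against 5.3% and 5.66%, with a median of 1.01. Romo1, a small inner membrane protein, had 43.4, 44.6, 29.0 and 32.5 CPM across the wild-type libraries, against 654, 61.1, 191 and 70.9 CPM across the Neat1 null ones. Library 1 was highest, and the log2 fold change was 2.71 ± 0.65 (SE, with an adjusted p = 0.0197). Romo1 was 1.52 without Neat1 null library 1 and lost its call with the length and GC correction (1.23, adjusted p = 0.0970). It was 2.35 with library sex as a covariate, a fit that sets Neat1 null library 3 alone against wild-type. The outer membrane gene Mtx1 and the motor regulator Dnajc15 had log2 fold changes of 2.25 ± 0.51 (SE, with an adjusted p = 0.0185) and 2.15 ± 0.47 (SE, with an adjusted p = 0.0181). Gfer, the sulfhydryl oxidase of the intermembrane space relay, had 1.72 ± 0.45 (SE, with an adjusted p = 0.0233). Mtx1 was 1.47 without Neat1 null library 1, and the length and GC correction ended the call of Gfer (adjusted p = 0.0852). With the sex covariate Mtx1 and Gfer were 2.12 and 1.63. The matrix chaperone genes Hspa9 and Hspd1 did not pass (0.38 and 0.49, adjusted p = 0.564 and 0.532). Of 13 listed porin, uncoupling protein, pyruvate carrier and sideroflexin genes, 11 were tested and 1 rose, the porin gene Vdac3. Its log2 fold change was 1.30 ± 0.36 (SE, with an adjusted p = 0.0262). That call was lost without wild-type library 2, 3 or 4 or Neat1 null library 3 (adjusted p = 0.0530, 0.0961, 0.116 and 0.0646). None of the 11 fell (1 lower at an unadjusted p under 0.05, and 3 higher and 1 lower by DESeq2), and their median was 0.37.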

How the data were processed

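RNA-seq was measured in 8 libraries, 4 wild-type and 4 Neat1 null. The authors deposited 1 table of raw read counts per gene symbol for each library. CASAVA 1.8, STAR, DESeq2 and the build mm10 are named in the submitters' processing notes, while the counter, its strand setting and the annotation are not given in the sources used here. Reads outside genes (5.48% to 15.7%) and ambiguous reads (1.09% to 1.76%) stayed out of library sizes. Libraries held 19651035 to 38950207 gene counts.

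Counts were tested with edgeR 4.0.16 in R 4.3.3 (robust quasi-likelihood F test, TMM factors, filterByExpr with a minimum count of 10, genotype only), with Benjamini-Hochberg adjustment over 13316 genes and a threshold of 0.05. Standard errors were derived from the F statistic. On counts simulated for this comparison with 13201 genes, 8% of 50 genes changed 2-fold, 52% changed 4-fold, 96% changed 8-fold and 90% changed 16-fold were recovered, with 2 false among 125 calls. Positions and exon lengths came from GENCODE annotation of GRCm38, which matched 98.4% of symbols, and promoters from RefSeq. Exons of 25 members overlap another gene model, in 6 cases over at least 10% of exon length. Called members among the 6 were Tomm6, Tomm40l, Timm8b (15.6%, Nkapd1), Slc25a33 (14.9%, Gm13068) and Timm10b (10.5%, Gm45799). Part of their counts is uncertain.

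Alternatives were RLE and upper-quartile factors, other filters, DESeq2 1.42.0, leaving out libraries, a replicate block, library sex, and correction for length and GC content by a spline with 5 degrees of freedom. All called members were named. Values in every library were given for the 6 called import genes and up to 6 called carriers with the smallest p, the paralog pairs and the most abundant member of each class, and further members were named after their values were seen. The values of 1 carrier are not reported here. Members and lists were chosen with earlier results of these data known.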

Additional observations from a re-analysis of the deposited data

Results flagged for a closer look

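In 8 of 126 groups of 4 libraries checked (6.35%), 1 library lay far from the other 3, where chance gives about 1 in 20 groups. Neat1 null library 1 was high for Timm9, with 48.2 CPM against 24.3 to 27.0 CPM, and for Timm44, with 238 CPM against 66.1 to 80.2 CPM. It was low for Slc25a17, with 30.9 CPM against 91.3 to 108 CPM. Neat1 null library 3 was high for Timm17b, with 158 CPM against 58.7 to 64.4 CPM, and for Slc25a23, with 54.1 CPM against 13.0 to 14.5 CPM. It was low for Slc25a32, with 6.03 CPM against 13.8 to 16.1 CPM. Wild-type library 1 was high for Tomm34, with 60.0 CPM against 42.3 to 43.8 CPM, and for Slc25a22, with 48.1 CPM against 23.9 to 26.2 CPM. None of these 8 genes passed the edgeR test between genotypes.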

How the results depend on the processing

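With any 1 library left out, 0 to 14 import genes were called higher, 0 to 9 carriers higher and 0 to 3 lower, and over all genes 1 to 1708 higher and 6 to 1388 lower. Without Neat1 null libraries 1 and 3, 0 import genes and 0 carriers were called higher, the import median was 0.79, and 5 genes in all were higher and 2 lower. Carriers called higher numbered 1 with upper-quartile factors and 9 with DESeq2, against 7.78% and 14.5% of all genes. Those called lower numbered 5 and 4, against 10.7% and 11% of all genes, and 2 with a filter of 1 CPM (7.81% of all genes). The sex covariate gave medians of 1.82 for import genes and 0.56 for carriers, with 1595 genes lower in all. The length and GC correction gave 8 import genes higher and 700 genes higher in all (5.3%). The cause of these changes was not tested. The labels do not say whether same-numbered libraries of both genotypes are paired. Their deviations had correlations of 0.31, -0.31, -0.03 and 0.09, and differently numbered libraries reached 0.41. Such values cannot show whether libraries shared a preparation. With a replicate block 11 import genes and 2 carriers were called higher and 1 carrier lower, and over all genes 1093 higher (8.21%) and 1152 lower (8.65%). With the block and the length and GC correction, 10 import genes and 3 carriers were higher and 1 carrier lower. Of all genes 6.93% were then higher and 7.19% lower. With 1 library left out, the difference in the log2 ratio of Timm8a1 to Timm8b, -0.13, ranged from -0.64 to 0.42 and turned positive without wild-type library 1 (0.22) or Neat1 null library 3. That of Slc25a12 to Slc25a13, 0.07, ranged from -0.0893 to 0.248, turned negative without wild-type library 4 or Neat1 null library 3, and was -0.28 without Neat1 null libraries 1 and 3. With library sex as a covariate, Timm8a1 turned to -0.39, Slc25a13 to -0.0109 and Slc25a23 to 0.0153. Without Neat1 null libraries 1 and 3, Slc25a28 turned to -0.17 and Slc25a24 to 0.21, and the latter ranged from -0.41 to 0.0222 with 1 library left out, highest without Neat1 null library 3. For 52 single genes and ratios, 647 of 864 values kept direction and side of the threshold, 188 lost and 18 gained the threshold, and 11 reversed. Simulated 2-fold changes were recovered in 8% of genes, with 200 of 13201 genes changed. In the data 2356 genes passed, which makes the adjusted threshold less strict, so that share does not carry over to the data.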
